A study of Glycine max with 6 samples.

Results

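A set of 5 genes that handle nitrogen in soybean were followed between 2 cell layers of the mature leaf, the paraveinal mesophyll (PVM) and the palisade parenchyma (PP). They are LOC548082 (a cytosolic glutamine synthetase, synonym GS1beta1), the glutamate dehydrogenase GDH1, the urease accessory gene EU3, the uricase UR2 and the nitrate transporter NRT1-3. All probe sets to which the platform annotation gives 1 of these symbols alone were taken, 14 of the 37593 soybean probe sets on the array, for 5 of the 6029 genes named there: 5 for LOC548082, 4 for GDH1, 2 each for UR2 and NRT1-3, and 1 for EU3. The genes were picked with their PVM and PP values on these same arrays known, so their differences are a description and carry no test.

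Untreated plants were grown in chambers with 16 h of light at 25 °C and 8 h of darkness at 18 °C. Leaf sections fixed in ethanol and acetic acid were laser-microdissected, cells of each sample were pooled, and the amplified RNA was hybridised to 1-colour Affymetrix soybean arrays, 3 biological replicates per layer. One free-text field of the PP samples speaks of paraveinal cells, but their other labels give palisade cells, and the PP samples were taken as palisade. Cultivar, plant age and whether a PVM and a PP sample share a plant are unstated in the labels.

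Plants take up nitrate through transporters of the NRT families and reduce it first to nitrite and then to ammonium. Glutamine synthetase joins ammonium to glutamate, and glutamate dehydrogenase interconverts glutamate and 2-oxoglutarate with ammonium on one side. In nodulated soybean, purine synthesis followed by oxidation through uricase yields the ureides allantoin and allantoate, which leaves break down to ammonium. Urease frees ammonium from urea and needs accessory proteins to receive its nickel. The PVM is a single layer of cells lying between palisade and spongy tissue at the level of the veins, known for holding vegetative storage proteins in its vacuoles.

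Values are deposited intensities, which are linear and appear to be scaled to a common mean. Differences are log2 values of PVM minus PP after adding 16 and quantile normalization. They are given with the standard error (SE) of a limma fit over 25314 soybean probe sets. A probe set passed the detection filter if it exceeded, on at least 3 of the 6 arrays, the 95th percentile of the probe sets for other organisms. That limit was an intensity of 11.0 to 20.7, depending on the array. Of the 14 probe sets, 11 passed the filter and 3 did not.

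The layers were set beside markers. The marker lists were chosen with earlier results of these data known, so their values are a description and no independent check. Vegetative storage proteins and leaf lipoxygenases, which mark the PVM, summed to an intensity between 96495 and 108390 per PVM array and between 42257 and 63721 per PP array, and the 23 of their 24 probe sets that passed the filter were all higher in PVM. Antenna, photosystem I and Rubisco activase probe sets summed to 79671 to 108866 in PVM and 126403 to 143907 in PP. Of the 16 of these that passed the filter, 5 were higher in PVM, and the median log2 difference of the 16 was -0.24. Among the 5 is a dim PSAD probe set that passed the filter through PVM arrays alone. Between 58.4% (PP array 3) and 68.5% (PVM array 3) of the soybean probe sets exceeded background. PP arrays 1 and 2 correlated at 0.947, whereas the other pairs of arrays ranged from 0.811 to 0.885. The PVM arrays correlated with each other at 0.847 to 0.870 and with PP arrays at 0.811 to 0.878. By this measure each PVM array was closer to PP array 1 than to either other PVM array. The values with PP array 1 were 0.872, 0.856 and 0.878 for PVM arrays 1 to 3. In pooled cells, fewer cells of a type and less RNA per cell cannot be told apart.

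On its brightest probe set, each of the 5 genes measured higher on every PVM array than on any PP array, with log2 differences from 0.77 for NRT1-3 to 1.67 for LOC548082. Of the 11 probe sets that passed the filter, all had a positive difference, and for 6 the normalized values of the layers did not overlap. Over all 25314 probe sets, 46.3% had a positive difference and 8.62% had the PVM values wholly above the PP values. Since the genes were chosen on this contrast, nothing is read from these comparisons.

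**Figure D1:**
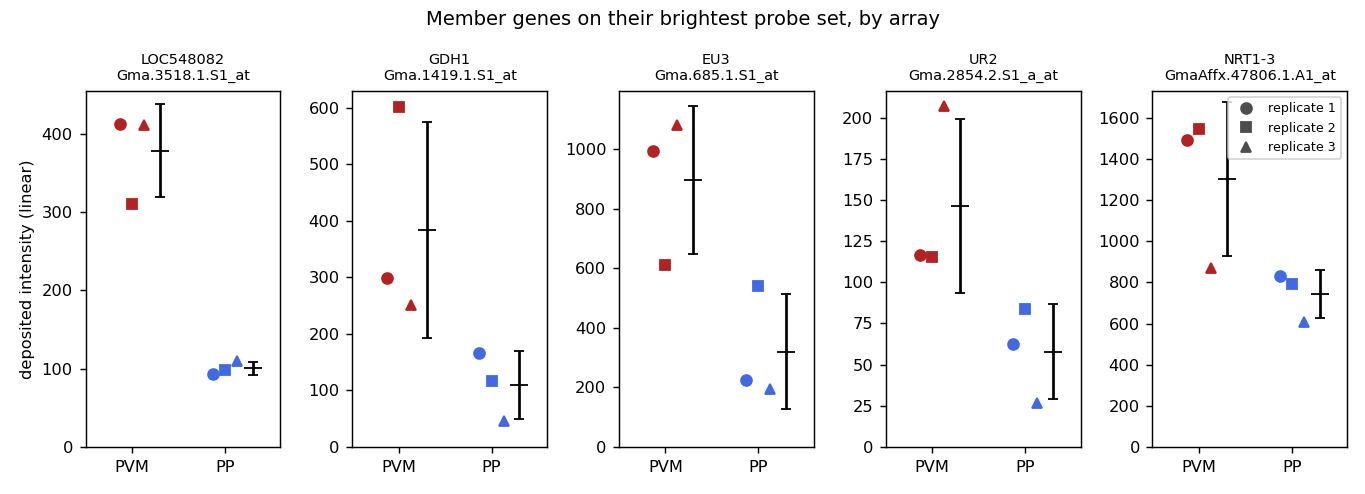
Deposited intensity (linear axis from 0, one scale per panel) of each gene's brightest probe set on the 3 PVM and 3 PP arrays; symbols mark the replicate, and the bar beside them is the mean with the SD. The PVM and PP points of LOC548082 lie far apart, at 310 or more against 109.8 or less, whereas the lowest PVM point of EU3 (613) lies close to its highest PP point (541).

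LOC548082 encodes a cytosolic glutamine synthetase, the enzyme form that assimilates ammonium outside the plastid. On probe set Gma.3518.1.S1_at it measured 413, 310 and 412 on PVM arrays 1 to 3 and 93.6, 98.2 and 109.8 on PP arrays 1 to 3. The layers were well separated and the PP arrays nearly equal, with a coefficient of variation of 8.27% in PP and 15.6% in PVM. Over all probe sets that passed the filter, the median coefficient of variation was 36.3% in PP and 47.4% in PVM. Those include dim probe sets, and the gene was chosen on this contrast, so nothing is read from the comparison. The means were 379 ± 59.2 in PVM and 100.5 ± 8.31 in PP (SD, n = 3 arrays each), 3.77 times as high in PVM. The log2 difference was 1.67 (SE 0.31), a fold of 3.19 on the normalized scale.

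The other 4 probe sets of LOC548082 were far less even. GmaAffx.92117.1.S1_s_at measured 101, 59.3 and 480 on the PVM arrays and 23.8, 35.8 and 0.645 on the PP arrays, a log2 difference of 2.43 (SE 0.73). The layers did not overlap, but the difference was 1.65 without PVM array 3 and 1.98 without PP array 3, which lay at the floor. It was 3.83 with a pseudocount of 1 and 1.48 with one of 64. GmaAffx.89678.1.S1_s_at measured 414, 10.9 and 776 in PVM and 10.1, 41.4 and 31.2 in PP, with the same log2 difference of 2.43 but an SE of 1.11. Here PVM array 2 fell among the PP arrays, so the layers overlapped, and the difference was 1.49 without PVM array 3 and 3.81 without PVM array 2. The remaining 2 did not pass the filter. GmaAffx.89678.1.A1_s_at was above background on PVM array 3, at 365, and on PP array 2, at 19.1, and GmaAffx.89678.1.A1_at was above it on no array.

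The endings of these names bear on what they measure. Affymetrix gives the ending s_at to probe sets whose probes match several transcripts, so the 3 with that ending may also read related glutamine synthetases. Gma.3518.1.S1_at has no such mark. A1 or S1 in a name gives the design orientation, and cluster 89678.1 has both. What the orientation means for the values was not tested.

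GDH1 encodes a glutamate dehydrogenase, a mitochondrial enzyme that releases or takes up ammonium. On Gma.1419.1.S1_at it measured 298, 602 and 250 on the PVM arrays and 166, 117 and 46.3 on the PP arrays. PVM array 2 was by far the highest and PP array 3 the lowest, and the layers did not overlap. The means were 384 ± 191 in PVM and 109.8 ± 60.0 in PP (SD, n = 3), and the log2 difference was 1.56 (SE 0.49).

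The 3 further GDH1 probe sets did not repeat this separation. GmaAffx.35522.1.A1_at measured 33.4, 43.4 and 131 in PVM and 67.0, 13.8 and 142 in PP, which gave a log2 difference of 0.084 (SE 0.70). GmaAffx.35522.1.S1_at, named for the same cluster in the other design orientation, measured 16.9, 4.27 and 64.8 in PVM. In PP it measured 36.6, 2.43 and 21.2, and it differed by 0.23 log2 units (SE 0.55). On both, array 2 of each layer was lower than array 3 of that layer, and the layers overlapped. GmaAffx.92966.1.S1_s_at ranged from 1.14 to 482 in PVM and from 0.593 to 124 in PP, and differed by 1.08 log2 units (SE 1.28). Without PVM array 3 the difference of these 3 probe sets was negative, at -0.31, -0.21 and -0.16 in the order given, while that of Gma.1419.1.S1_at was 1.80. Without PP array 2 the first 2 were also negative, at -0.61 and -0.20. Values without overlap between the layers were thus measured on 1 of the 4 GDH1 probe sets.

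**Figure D2:**
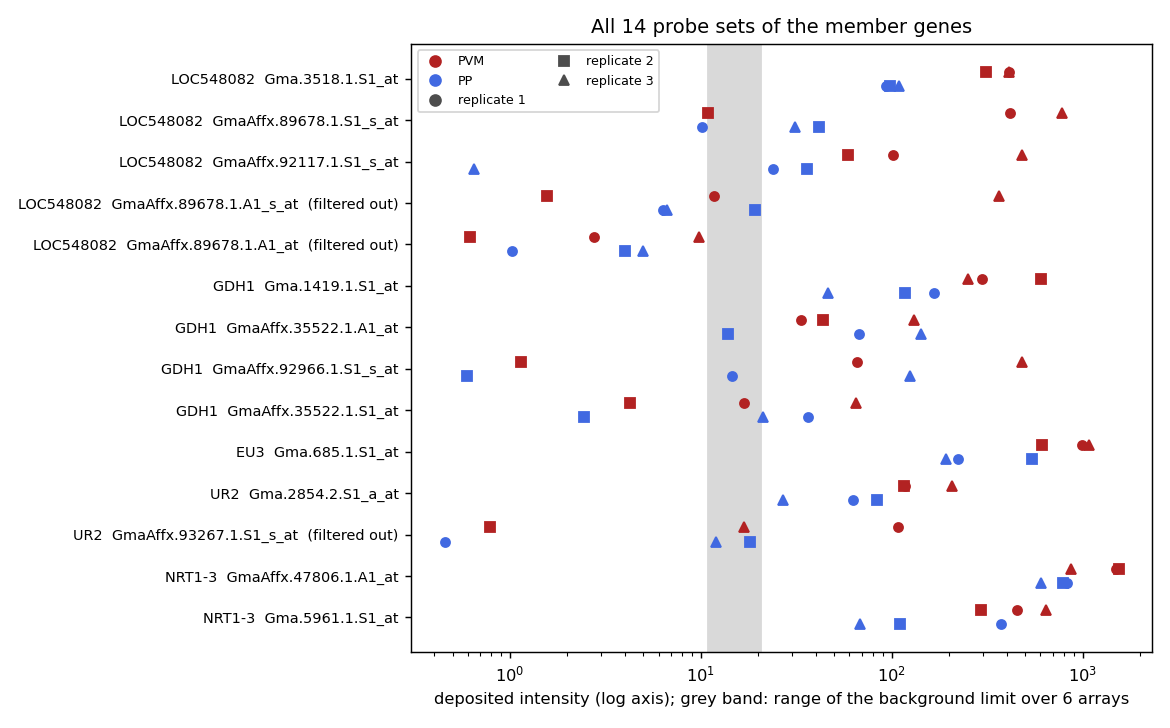
Deposited intensity (log axis) of all 14 probe sets on each array, red for PVM and blue for PP, symbols by replicate; the grey band spans the background limits of the 6 arrays (11.0 to 20.7). The brightest set of each gene lies to the right of the band on all 6 arrays, whereas most further sets of LOC548082, GDH1 and UR2 scatter across it.

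EU3 encodes the urease accessory protein UreG, a GTPase that takes part in loading nickel into urease. Its sole probe set, Gma.685.1.S1_at, measured 993, 613 and 1082 on the PVM arrays and 223, 541 and 193 on the PP arrays. PVM array 2 and PP array 2 came close to each other, with normalized log2 values of 9.22 and 9.17, while the other arrays were well apart. The means were 896 ± 249 in PVM and 319 ± 193 in PP (SD, n = 3), and the log2 difference was 1.49 (SE 0.48). Leaving out PP array 2 made it 1.93, and leaving out PP array 3 made it 1.25.

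UR2 encodes a uricase, the peroxisomal enzyme that oxidises uric acid on the way to allantoin. Its synonym N-35, which the uricase UR9 also carries, comes from nodulin-35, the uricase of soybean nodules. On Gma.2854.2.S1_a_at it measured 117, 115 and 207 on the PVM arrays and 62.7, 84.0 and 27.0 on the PP arrays. The layers did not overlap, and PVM array 3 and PP array 3 were the extremes on either side. The means were 146 ± 52.7 in PVM and 57.9 ± 28.8 in PP (SD, n = 3), and the log2 difference was 1.13 (SE 0.41). Its second probe set, GmaAffx.93267.1.S1_s_at, did not pass the filter. It measured 108 on PVM array 1 and 16.7 on PVM array 3, both above background, and was at or below background on PVM array 2 and on all PP arrays.

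NRT1-3 encodes a nitrate transporter of the NRT1 family. Its 2 probe sets were above background on all 6 arrays. GmaAffx.47806.1.A1_at measured 1493, 1545 and 871 on the PVM arrays and 829, 790 and 608 on the PP arrays. PVM array 3 lay just above PP array 1, so the layers were separated by a narrow gap. The means were 1303 ± 375 in PVM and 743 ± 118 in PP (SD, n = 3), and the log2 difference was 0.77 (SE 0.36). Gma.5961.1.S1_at measured 453, 295 and 642 in PVM and 372, 111 and 68.6 in PP, and differed by 1.41 log2 units (SE 0.59), more than on the first. On that probe set PP array 1 lay above PVM array 2, so the layers overlapped. Leaving out PP array 1 gave 2.02, and leaving out PP array 3 gave 0.996.

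One array recurred in these values. Of the 9 probe sets that are not their gene's brightest, PVM array 3 was the highest PVM array on 8. It was so on 2 of the 5 brightest ones and on 37.5% of all 25314 probe sets. Only 6 of the 9 passed the filter, as all 25314 did, and several of the 9 share a cluster. The counts are of deposited intensities, whose soybean median was 44.6, 34.7 and 54.3 on PVM arrays 1 to 3.

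**Figure D3:**
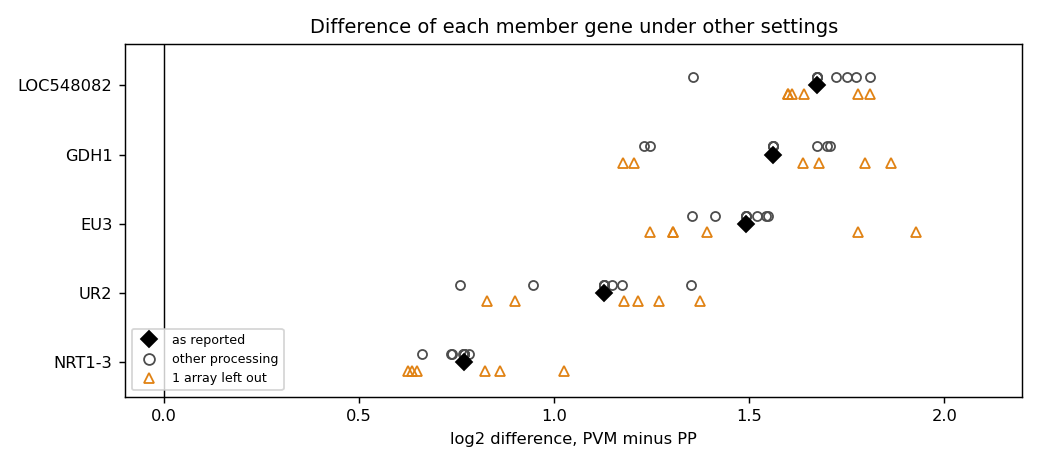
Log2 difference, PVM minus PP, of each gene's brightest probe set as reported (diamond), under other processing (circles) and with 1 array left out (triangles). All values lie above 0, from 0.63 for NRT1-3 without PP array 3 to 1.93 for EU3 without PP array 2. Because the normalized layers do not overlap on these probe sets, leaving out an array cannot reverse a sign.

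The rest of the pathway was read from a list of symbols and synonyms for nitrogen uptake, reduction, assimilation, ureides, urease and amide synthesis. The list was drawn up with earlier results of these data known, and every matching gene was taken whatever its values. Without the 5 genes above it held 20 genes on 38 probe sets, of which 26, for 16 genes, passed the filter. None passed an adjusted p of 0.05 in limma in either direction, and their smallest adjusted p was 0.310. Over all probe sets 0.0435% passed as higher in PVM and 0% as higher in PP. At an unadjusted p under 0.05 there were 2 higher in PVM, of AAT and LOC547953, and 2 lower, of AMT1.3 and AS2. The corresponding share over all probe sets was 6.53% and 5.63%. By sign, 11 had a positive and 15 a negative difference, and over all probe sets 46.3% had a positive one. The median of the 26 was -0.26, against -0.057 over all probe sets. With 1 probe set per gene the split was 9 to 7 and the median 0.18, so the sign of the median depends on how genes with several probe sets are counted.

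Of the 4 other glutamine synthetase genes, 2 passed the filter, both with a positive difference, overlapping layers and no call. LOC547953, a closely related cytosolic form (synonym GS1beta2), measured 891, 1263 and 2289 on the PVM arrays and 326, 270 and 1108 on the PP arrays on Gma.4375.1.A1_at, a log2 difference of 1.55 (SE 0.61, adjusted p = 0.375 in limma). PP array 3 lay between PVM arrays 1 and 2. Its other 2 probe sets, Gma.4375.1.S1_at and Gma.4375.1.S1_x_at, are of the other design orientation and did not pass the filter. Each was above background on 1 array, with means of 7.23 and 11.2 in PVM and 7.21 and 7.93 in PP. GS1alpha measured 718, 111 and 307 in PVM and 15.3, 16.5 and 423 in PP, and differed by 2.09 log2 units (SE 1.12, adjusted p = 0.504 in limma). PP arrays 1 and 2 were below background there, while PP array 3 exceeded 2 of the PVM arrays, and without it the difference was 3.39, against 1.43 without PP array 1, 1.44 without PP array 2 and 1.48 without PVM array 1. The gamma forms GS1GAMMA2 and GS1-GAMMA did not pass the filter, the former above background on no array and the latter on 1, with means of 1.94 and 7.57 in PVM and 3.82 and 22.6 in PP. Related cytosolic forms can share probes, so the levels of single glutamine synthetase genes are uncertain. The second glutamate dehydrogenase, GDH2, was above background on 3 arrays and differed by 0.80 log2 units (SE 0.48).

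Transcripts for nitrate reduction had the opposite sign. All 5 probe sets of the nitrate reductases INR1 and INR2 and the nitrite reductase NIR measured lower in PVM, under each of the settings tried, and none passed the test. NIR measured 3672 ± 443 in PVM and 5497 ± 582 in PP (SD, n = 3) on the brightest of its probe sets, differing by -0.32 log2 units (SE 0.30), and its other 2 probe sets differed by -0.69 and -0.86. On all 3 the PP arrays lay above the PVM arrays, so leaving out an array could not reverse their sign. The replicate block, the filters and the variance prior leave a difference unchanged, so these settings could not reverse a sign either. INR1 differed by -0.50 and INR2 by -0.26, with overlap after normalization. The high-affinity nitrate transporter NRT2 was above background on no array, so NRT1-3 was the sole nitrate transporter of the list with a signal here.

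AMT1.3, an ammonium transporter, measured 1824, 1740 and 2854 on the PVM arrays and 4409, 4752 and 4061 on the PP arrays. The layers did not overlap, and the log2 difference was -0.90 (SE 0.35, adjusted p = 0.368 in limma). The asparagine synthetase AS2 measured 474, 534 and 725 in PVM and 1166, 1251 and 851 in PP on the brighter of its probe sets, and differed by -0.91 log2 units (SE 0.35, adjusted p = 0.361 in limma). Its second probe set differed by 0.11. LOC732660 (synonym SAS3) differed by -0.26 (SE 0.68) on its brightest probe set and by -0.91 to -0.38 on its other 3. The layers overlapped on each. Mean intensity was higher in PVM than in PP on each but GmaAffx.90212.1.S1_s_at. It was 441 against 356 on the brightest, where PVM array 2 measured 960.

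The purine synthesis genes PUR1, PUR3 and PURD, upstream of uricase, differed by 0.35, 0.49 and 0.97 log2 units on the probe set that passed the filter for each. The layers overlapped for all 3, with adjusted p values of 0.785, 0.645 and 0.485 in limma. UR9, the other uricase of the list (synonyms N-35 and nodulin-35), was above background on no array. AAH, which encodes allantoate amidohydrolase, an enzyme of ureide breakdown, measured 3427 ± 212 in PVM and 6039 ± 424 in PP (SD, n = 3) on its brightest probe set. Its log2 difference there was -0.55 (SE 0.30, adjusted p = 0.506 in limma), and its 4 probe sets ranged from -0.63 to -0.16, with 1 of the 4 positive without PP array 1 or without PP array 2. Without quantile normalization AAH differed by -0.81 and NIR by -0.58. Urease itself, LOC547672 (synonym URE), which EU3 serves, measured 259 ± 43.8 in PVM against a PP level of 156 ± 92.0, and differed by 0.68 log2 units (SE 0.42) with overlapping arrays.

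AAT, an aspartate aminotransferase, measured 136, 215 and 311 on the PVM arrays and 74.4, 17.2 and 84.0 on the PP arrays on its brightest probe set. The layers did not overlap, and the log2 difference of 1.71 (SE 0.57) had the smallest adjusted p of the list, 0.310 in limma. A second AAT probe set differed by 0.51 with overlap, and 2 did not pass the filter. ASP1, which the list took for its symbol and whose synonym GM-ASNASE1 points to an asparaginase, differed by 0.0046 log2 units (SE 0.30). It became -0.42 when no quantile normalization was done and -0.44 when each array was centred on its soybean median. In the list as a whole, 1 probe set had the PVM values wholly above the PP values and 7 the reverse, the latter from NIR, AAH, AMT1.3 and AS2. Over all probe sets these shares were 8.62% and 10.1%.

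**Figure D4:**
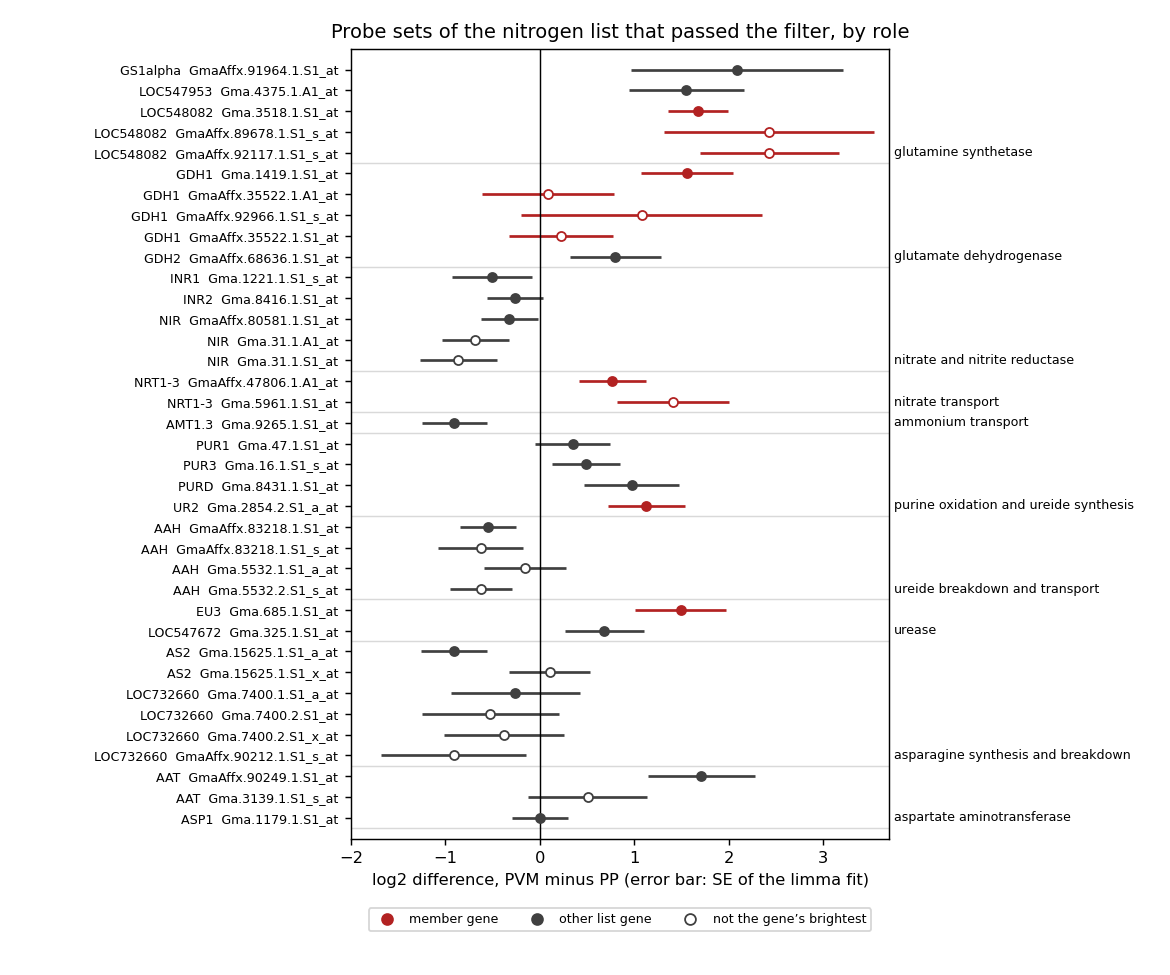
Log2 difference, PVM minus PP, of each probe set of the list that passed the filter, grouped by role, with the SE as error bar; red marks the 5 followed genes, grey the others, and open symbols are not the brightest probe set of their gene. The 5 nitrate and nitrite reductase probe sets lie left of 0, and the 5 glutamine synthetase probe sets lie right of it, with error bars of up to 1.12. Of these glutamine synthetase probe sets, 3 are of LOC548082, which was chosen on this contrast, and 2 are of other genes.

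Because the PVM lies at the level of the veins, vein markers are given beside these values. The 6 probe sets of the sucrose synthase SS and the sucrose transporter SUT1 summed to 2182, 843 and 366 on PVM arrays 1 to 3 and 391, 535 and 420 on PP arrays 1 to 3. Of the 5 that passed the filter, 4 measured higher in PVM, and none of the 6 was below background on every array. PVM array 1 carried the high sum, with 785 on 1 SS probe set, and the sum of PVM array 3 lay below those of all PP arrays. The SS probe set Gma.1828.1.S1_at measured 117, 38.0 and 72.9 on the PVM arrays. On the PP arrays it measured 4.45, 13.6 and 12.6, all 3 below background. Every PVM array lay above every PP array on it, but it passed the filter through PVM arrays alone, which favours that direction. The guard cell marker MYB60 summed over 4 probe sets to 35.6 to 433 in PVM and 24.0 to 91.5 in PP, highest on PVM array 3, and 1 of the 4 was above background on no array. Both MYB60 probe sets that passed the filter were higher in PVM. One of them, GmaAffx.84566.1.S1_at, measured 22.9, 33.9 and 190 on the PVM arrays. Its PP values of 1.23, 12.7 and 10.2 were all below background, so it too passed the filter through PVM arrays alone. No probe set matched the epidermis list. Whether RNA of vein or guard cells has a part in the values of the 5 genes was not tested.

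The genes whose profiles over the 6 arrays were most like those of the 5 genes were looked up among 693 or 694 other genes with a name that is not a bare LOC number. The measure was Pearson's r of normalized log2 values over all 6 arrays, which includes the difference between layers, and it is a description. The profile of LOC548082 was nearest to those of CYP71A9 (0.98), SGT3 (0.98) and GLYI-17 (0.96). That of GDH1 was nearest to UBC4 (0.995), GSTa (0.98) and G (0.96), and that of EU3 to WRKY14 (0.95), CYSTATIN (0.95) and WRKY19 (0.92). UR2 was nearest to WRKY39 (0.99), EREB (0.98) and GAPC1 (0.97), and NRT1-3 to GSTU41 (0.99), GSTa (0.96) and PAP3 (0.95). GSTa was the sole gene named for more than 1 of the 5. The r values given are the highest of each search, over only 6 arrays, and were not tested. The median r over the genes searched ranged from 0.047 for UR2 to 0.088 for GDH1.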

How the data were processed

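The authors deposited 1 linear intensity per probe set and array. Neither program nor summarisation method is given in the sources used here. Each array had a 2% trimmed mean of 125, so the deposited intensities appear to be scaled to a common mean. From them, log2(intensity + 16) was quantile-normalized over 61170 probe sets. This scale understates differences of dim probe sets. The fit used limma 3.58.1 in R 4.3.3 (lmFit, eBayes, 2-sided, no covariates, Benjamini-Hochberg over 25314 probe sets) and was tested on simulated data. The number of arrays limits the precision.

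Symbols came from the platform annotation, updated through a RefSeq table (Glycine_max_v4.0), which matched 8652 of 8677 probe sets with 1 symbol, including the 14. Symbols outside that annotation are unnamed here. No probe or gene sequence was used, and no coordinates are printed, because the values come with no genome build.

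The members, lists and tests were chosen with earlier results of these data known. Every list gene was to be named on its brightest probe set (highest normalized mean), with values by array for the 5 genes and, if none of the list passed, for the 2 highest and 2 lowest differences (LOC547953 was added after its values were seen), and 3 most alike genes per member. Same-numbered arrays were not treated as pairs, since their deviations from the layer means correlated by 0.016 to 0.049. Alternatives were a replicate block, normalization, pseudocount, filter, variance prior, array weights, threshold, 1 probe set per gene and leaving out each array.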

Additional observations from a re-analysis of the deposited data

How the results depend on the processing

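The difference of each of the 5 genes on its brightest probe set stayed positive under all 15 alternatives. Much of this was fixed in advance. The normalized layers did not overlap on these probe sets, so leaving out an array could not reverse a sign. The replicate block, the filters and the variance prior leave the difference itself unchanged. LOC548082 ran from 1.36 to 1.81 on the log2 scale, where 1.36, with a pseudocount of 64, moved by more than the replicate SD. GDH1 ran from 1.18 to 1.86, EU3 from 1.25 to 1.93, UR2 from 0.76 to 1.37 and NRT1-3 from 0.63 to 1.02. Of the further GDH1 probe sets, GmaAffx.35522.1.A1_at was -0.016 with a pseudocount of 64 and -0.61 to 0.71 with 1 array left out, GmaAffx.35522.1.S1_at -0.21 to 0.60 and GmaAffx.92966.1.S1_s_at -0.16 to 2.24. The rest of the list had 0 calls under all 16 alternatives, while 0 to 4 probe sets higher and 0 to 6 lower in PVM had an unadjusted p under 0.05. Its median of -0.26 became 0.034 with no filter and 0.18 with 1 probe set per gene, and was -0.35 to -0.037 with 1 array left out. ASP1 was -0.082 to 0.080 and LOC732660 -1.05 to 0.29 with 1 array left out, and ASP1 was -0.42 without quantile normalization and -0.44 with median centring.

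Over all genes, the 11 calls higher in PVM became 1 with a pseudocount of 1, 54 with 64, 5 with no filter, 136 with an intensity trend and robust prior, 1 at an adjusted p under 0.01 and 0 to 3 with 1 array left out. The 0 calls higher in PP became 3 with a pseudocount of 64 and 13 with the trend. With the replicate number as a block, the 11 calls became 0. Each array's deviations correlated best with those of the array of the same number (0.016, 0.030 and 0.049), a hint from the data and not from the design. The cause of these shifts was not tested. Dim probe sets, within the grey band of background limits, have sizes set by values near the floor.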
